A study of Homo sapiens with 23 samples.

Results

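The 4 windows described here hold clusters of olfactory receptor genes on chromosomes 11, 1, 14 and 9 of the human genome. A peak belonged to them when its summit, the base of highest enrichment within the peak, lay in chr11:55000001-56500000, chr1:247600001-248900000, chr14:20200001-20600000 or chr9:125200001-125600000 (hg19). Of 2889028 peaks in the 22 deposited lists, 1989 did so, or 0.0688%. The rule places peaks by position alone. The windows span 3.6 Mb in all, of which the chromosome 11 window takes 1.5 Mb, the chromosome 1 window 1.3 Mb and each of the others 0.4 Mb.

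The lists come from chromatin immunoprecipitation followed by sequencing (ChIP-seq) in NCI-H23 cells, a cultured human line derived from a lung tumour of the non-small cell type, with no genetic change named in the labels. Each of 11 targets, 10 histone modifications and the protein BRD2, had 2 replicate libraries. The labels' protocol names a 24 h treatment with the BET inhibitor JQ1 or its solvent DMSO, but no sample label says which was used, so all libraries of a target were taken as 1 group and no treatment was compared. An input sample is labelled too and was not used here. The labels do not say whether the libraries of a target came from separate cultures, so the spread between them may be technical, and since the lists give no read numbers, sequencing depth is unknown.

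Olfactory receptors are G protein-coupled receptors of the nose, encoded by one of the largest mammalian gene families, whose members lie in tandem clusters together with many pseudogenes. A sensory neuron expresses a single receptor allele, and the clusters are silent in most other tissues. H3K9me3 marks constitutive heterochromatin and is known to cover silent receptor clusters in olfactory neurons. H3K27me3 is laid down by Polycomb repressive complex 2 and marks silent developmental genes. H3K4me3 marks active promoters, H3K4me1 and H3K27ac mark enhancers and promoters, H3K36me3 marks the bodies of transcribed genes, and acetylated histone H4 is the ligand of the BET bromodomain protein BRD2.

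In RefSeq's gene order (GRCh38.p14), unbroken runs of receptor genes around OR5D13, OR2L13, OR4K5 and OR1J1, with at most 3 other genes between neighbours, held 117, 56, 30 and 15 receptor genes and pseudogenes on chromosomes 11, 1, 14 and 9. Of these 218, 121 are protein coding. The chromosome 11 run is mostly pseudogenes, 69 of 117, while 14 of the 15 genes of the chromosome 9 run code for protein. Other protein-coding genes inside the runs are few: TRIM48 and TRIM51 on chromosome 11, and GCSAML and TRIM58 on chromosome 1. The chromosome 9 run lies between PTGS1, a prostaglandin synthase, and PDCL, a phosducin-like chaperone gene. The runs give the gene content of the clusters only, since no hg19 gene positions were used, and no peak was assigned to a gene.

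The sequence in front of the receptor genes is shown because H3K4me3 typically forms at promoters rich in CpG dinucleotides. RefSeq's promoter table (GRCh38.p14) held 98 of the 218 receptor genes. In the 250 bases before their start the median number of CpG dinucleotides was 1 and the median GC content 34.8%, against 11 and 58.0% over all 27305 promoters of the table. Only 1 of the 98, OR2L13 with 16, had 10 or more CpG dinucleotides, compared with 51.9% of all promoters. The sequence TAATTA, a core that LIM homeodomain factors bind and which reads the same on both strands, was found in 23.5% of the 98 and in 4.49% of all promoters. It consists of A and T only, and the 2 sets differ in GC content (medians 34.8% and 58.0%). The part of base composition in this contrast was not tested, and no binding was measured. Per run the promoters with TAATTA made up 29.5% of 44 on chromosome 11, 19.4% of 36 on chromosome 1, 33.3% of 9 on chromosome 14 and 0 of 9 on chromosome 9. The promoters below are those of the gene around which each run was built, or of the nearest gene in the run that the table held, followed by PDCL as a CpG-rich neighbour; CpG dinucleotides are in capitals. They lie at chr11:55773188-55773437 (plus strand), chr1:247936927-247937176 (plus), chr14:19930667-19930916 (plus), chr9:122477927-122478176 (minus) and chr9:122828589-122828838 (minus) of GRCh38.p14, positions that cannot be set against the hg19 positions of peaks given elsewhere.

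OR5D13: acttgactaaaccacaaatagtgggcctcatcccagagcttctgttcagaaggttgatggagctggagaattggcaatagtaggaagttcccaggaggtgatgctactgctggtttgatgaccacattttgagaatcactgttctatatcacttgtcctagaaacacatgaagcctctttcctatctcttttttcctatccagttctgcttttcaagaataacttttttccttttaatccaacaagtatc
OR2L13: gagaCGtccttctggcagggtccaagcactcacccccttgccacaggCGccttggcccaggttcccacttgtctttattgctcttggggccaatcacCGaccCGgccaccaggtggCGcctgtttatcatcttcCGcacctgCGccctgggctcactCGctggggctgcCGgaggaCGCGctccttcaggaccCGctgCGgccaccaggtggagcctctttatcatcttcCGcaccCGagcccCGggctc
OR4K1: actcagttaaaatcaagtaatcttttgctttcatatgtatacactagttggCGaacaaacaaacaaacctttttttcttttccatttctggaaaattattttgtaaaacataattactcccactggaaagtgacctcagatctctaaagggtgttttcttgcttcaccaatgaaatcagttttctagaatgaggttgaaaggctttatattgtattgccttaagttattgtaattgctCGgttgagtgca
OR1J1: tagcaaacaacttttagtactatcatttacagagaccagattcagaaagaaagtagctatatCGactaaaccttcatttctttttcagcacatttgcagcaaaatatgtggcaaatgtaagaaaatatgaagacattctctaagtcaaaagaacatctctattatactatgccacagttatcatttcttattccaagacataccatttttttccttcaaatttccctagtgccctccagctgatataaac
PDCL: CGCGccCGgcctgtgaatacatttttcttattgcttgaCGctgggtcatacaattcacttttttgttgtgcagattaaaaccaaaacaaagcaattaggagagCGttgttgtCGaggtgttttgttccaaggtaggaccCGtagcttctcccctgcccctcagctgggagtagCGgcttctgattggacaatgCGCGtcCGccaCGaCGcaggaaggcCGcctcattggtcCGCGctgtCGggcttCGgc

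OR5D13 has no CpG in this stretch, OR1J1 has 1 and OR4K1 has 2, against 18 in PDCL. OR4K1 also holds TAATTA. OR2L13 stands apart from the other receptor promoters shown, with a GC content of 65.6%.

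The first question was whether the receptor clusters carry more of the repressive marks and less of the active marks than the rest of the genome. By number of peaks the active marks were sparse in every library and the repressive marks denser, although the repressive excess depended on peak strength, on the measure and on single clusters. H3K9me3 and H3K27me3 together gave 1681 of the 1989 peaks, or 84.5%, although they make up 32.4% of all peaks in the lists. The 16 lists of 8 active marks (H4K5acK8ac, H4K5ac, H4K8ac, H4K12ac, H3K27ac, H3K4me1, H3K4me3 and H3K36me3) put 260 peaks there, and BRD2 put 48. Densities were compared as a ratio of peaks per Mb in the windows to peaks per Mb in a reference. The reference was the 28081 bins of 100 kb on chromosomes 1 to 22 and X, outside the windows, that held a summit of any list. Of the 36 window bins, 35 held such a summit. The empty bin, chr1:248700001-248800000, was kept in the window, although empty bins were left out of the reference. This lowers the densities of the chromosome 1 window and of all windows together.

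H3K9me3 had 103.6 and 130.8 peaks per Mb in the windows in libraries 1 and 2, against 73.4 and 84.8 in the reference. Its density ratio was 1.48 ± 0.0936 (SD, n = 2 libraries), above 1 in both libraries. H3K27me3 had 89.7 and 142.8 peaks per Mb, against 75.7 and 98.6, a density ratio of 1.32 ± 0.186 (SD, n = 2 libraries). Every one of the 16 active libraries had a ratio below 1, between 0.0555 and 0.398. The mean over the repressive marks was 1.40 ± 0.113 (SD, n = 2 marks) and over the active marks 0.141 ± 0.107 (SD, n = 8 marks), a difference of 1.26 (exact permutation test over marks, two-sided, p = 0.0444). This p is the smallest that 2 marks against 8 can give. The marks are not independent: H4K5acK8ac, H4K5ac and H4K8ac share residues, and all lists come from 1 cell line and the same windows. The p therefore records that both repressive marks ranked above all 8 active marks, and does not measure variation between cell samples. Windows, lists and comparisons were chosen with earlier results of these data known, so this p is no independent support for the ranking. An exact permutation test of 2 libraries against 2 cannot go below p = 0.333, so ratios of single marks and windows are given without a test.

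**Figure D1:**
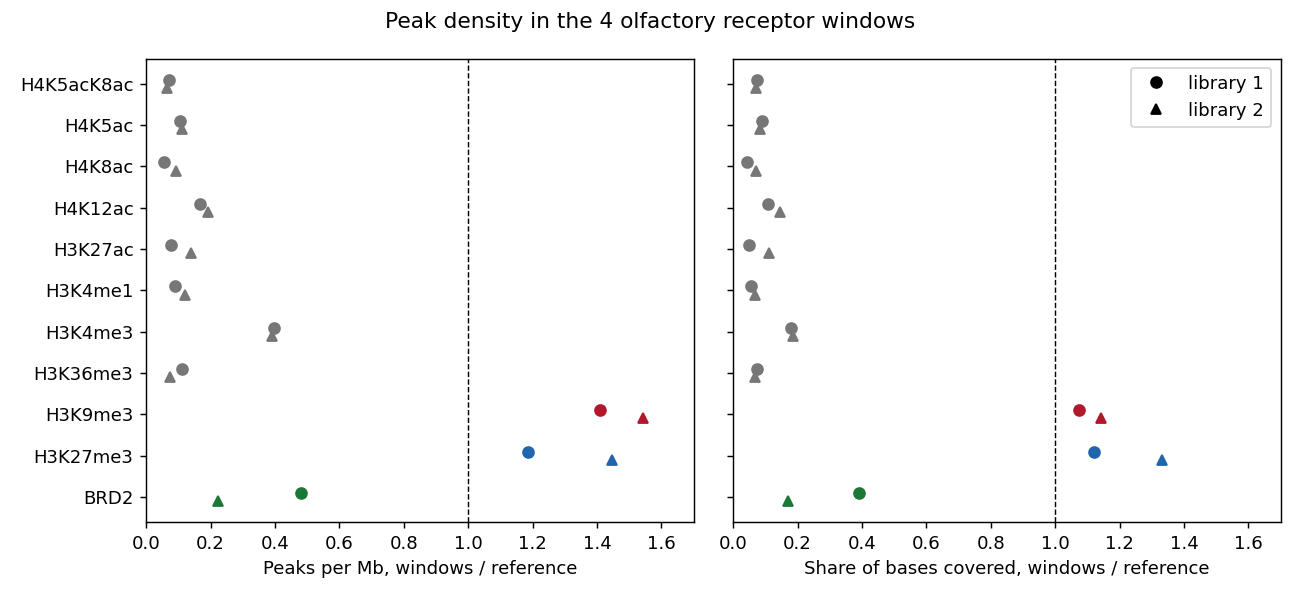
Peak density of each target in the olfactory receptor windows relative to the reference bins (left) and the same for the share of bases covered by peaks (right), both as plain ratios. Points are single libraries (circle, library 1; triangle, library 2), and the dashed line marks equal density; H3K9me3 (red) and H3K27me3 (blue) lie right of it in both panels, while all active marks (grey) and BRD2 (green) lie left.

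Pooled over the windows, the repressive peaks were numerous but no more often strong than in the reference. For H3K9me3, 13.7% and 21.0% of the window peaks had a −log10 q of at least 5, compared with 24.8% and 34.3% in the reference. Counting only such peaks, the H3K9me3 ratio was 0.861 ± 0.120, and among the 20000 strongest peaks of each list it was 0.431 ± 0.166 (SD, n = 2 libraries each). The excess of H3K9me3 peaks in the windows lay in the weaker ones. Measured as covered bases the ratio was 1.11 ± 0.0474, and bases under H3K9me3 in both libraries made up 2.72% of the windows against 3.27% of the reference. For H3K27me3, 18.0% and 9.73% of the window peaks were that strong, against 18.1% and 14.5%, and the ratio over strong peaks was 1.07 ± 0.143 (SD, n = 2 libraries). Bases under H3K27me3 in both libraries made up 3.06% of the windows against 2.64% of the reference. The windows differed in strength. On chromosome 9, 42 of 143 and 33 of 178 H3K27me3 peaks were that strong, a larger share than in the reference. On chromosome 11 it was 1 of 40 and 0 of 87. For H3K9me3 the counts were 14 of 66 and 21 of 62 on chromosome 9, and 21 of 203 and 54 of 277 on chromosome 11. The tallest H3K9me3 peak in the windows reached a −log10 q of 26.8, while the tallest outside reached 145.

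Across 100 kb bins, the repressive marks were spread over most of the windows. A summit of H3K9me3 in both libraries was found in 34 of 36 window bins, against 82.8% of reference bins, and of H3K27me3 in 30 of 36, against 58.6%. Both marks had summits in all 4 libraries in 29 of 36 bins, against 54.6%. The active marks were the reverse. The count was 5 of 36 bins for H4K5acK8ac (reference 49.8%), 7 for H4K5ac (55.3%), 6 for H4K8ac (55.5%), 9 for H4K12ac (61.0%) and 6 for H3K27ac (48.9%). It was 8 of 36 bins for H3K4me1 (reference 64.4%), 9 for H3K4me3 (41.5%) and 2 for H3K36me3 (35.3%). No active mark had a summit in any of the 16 libraries in 12 of 36 window bins, against 8.29% of reference bins. Of these 12, 10 lay in the chromosome 11 window. Among the 12 is also chr1:248700001-248800000, which held no summit of any list. The reference leaves out such bins, so the shares of 36 bins and of reference bins are not fully alike.

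The 4 clusters differed in which repressive mark they carried. The chromosome 11 cluster had many H3K9me3 peaks and few of H3K27me3. It held 203 and 277 H3K9me3 peaks, at 1.84 and 2.18 times the reference density, but only 40 and 87 H3K27me3 peaks, at 0.352 and 0.588 times. In covered bases its H3K9me3 ratio was lower, 1.29 and 1.46, and the bases under H3K9me3 in both libraries were 2.99% of the window, below the 3.27% of the reference. In the chromosome 9 cluster both marks were dense, with 66 and 62 H3K9me3 peaks (2.25 and 1.83 times) and 143 and 178 H3K27me3 peaks (4.72 and 4.51 times). H3K27me3 peaks covered 23.2% and 27.3% of its bases. The median chromosome 9 bin held 40.5 H3K27me3 peaks, a number reached by 4.96% of reference bins, whose median was 2.5. The median chromosome 11 bin held 3.5, reached by 45.2% of reference bins. By this median the H3K27me3 of chromosome 11 lay above the reference, although its density lay below.

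The chromosome 1 and chromosome 14 clusters were close to the reference for H3K9me3. On chromosome 1 there were 80 and 104 H3K9me3 peaks, 0.838 and 0.944 times the reference density, and 102 and 193 H3K27me3 peaks, 1.04 and 1.51 times. On chromosome 14 there were 24 and 28 H3K9me3 peaks, 0.817 and 0.826 times, and 38 and 56 H3K27me3 peaks, 1.25 and 1.42 times. By peak number, H3K27me3 lay above the reference in both clusters and both libraries, and H3K9me3 lay below it on chromosome 14. On chromosome 1 the H3K9me3 ratios count a 100 kb bin without any summit, a kind left out of the reference. The 0.944 of library 2 therefore does not settle on which side it lies. In the median bin (mean of both libraries) H3K9me3 had 4.5 peaks on chromosome 1 and 6.25 on chromosome 14, against 4.5 in the reference. In covered bases the H3K27me3 ratio of the chromosome 1 cluster fell on either side of 1, at 0.841 and 1.25, and the bases under H3K27me3 in both libraries were 2.14% of that window against 2.64% of the reference. The ratio over all windows rested on single clusters: without the chromosome 9 window the H3K27me3 ratio was 0.904 ± 0.228, and without the chromosome 11 window the H3K9me3 ratio was 1.10 ± 0.00893 (SD, n = 2 libraries each). Differences between the windows were not tested.

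**Figure D2:**
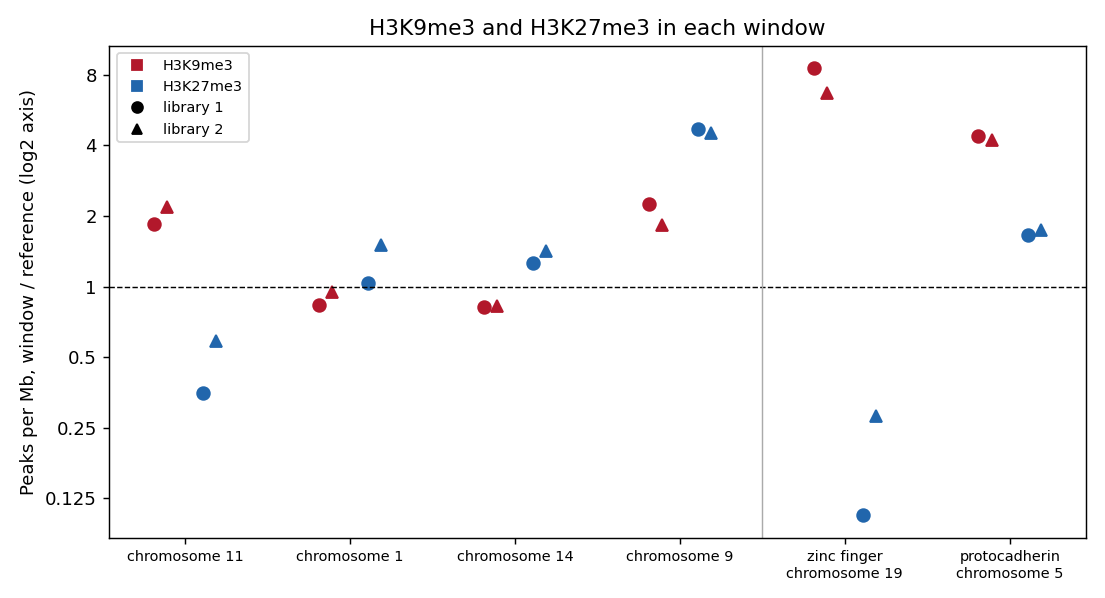
Density ratio of H3K9me3 (red) and H3K27me3 (blue) on a log2 axis in each olfactory receptor window and, right of the grey line, in 2 comparison windows; points are single libraries (circle, library 1; triangle, library 2) and the dashed line marks the reference density. H3K9me3 lies above H3K27me3 on chromosome 11 and below it on chromosome 9.

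Other tandem gene families served as a contrast, at positions known in general for hg19. A window of zinc finger genes at chr19:20000001-24000000 had H3K9me3 at 8.53 and 6.69 times the reference density, H3K27me3 at 0.106 and 0.281 times and H3K36me3 at 0.753 times (mean of both libraries). The receptor cluster on chromosome 11 had the same order of the repressive marks at a lower H3K9me3 density, and no H3K36me3 peak in either library. A window of clustered protocadherin genes at chr5:140100001-140900000 had H3K9me3 at 4.39 and 4.23 times, H3K27me3 at 1.67 and 1.74 times and H3K4me3 at 3.79 times the reference. Like the chromosome 9 receptor cluster it was above the reference for both repressive marks, but H3K4me3 at the chromosome 9 cluster was 0.645 times the reference.

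The edges of the chromosome 9 cluster were sharp for H3K27me3, and for H3K9me3 the upper edge only. In the 500 kb above the window H3K9me3 fell to 0.0817 and 0.0944 times the reference and H3K27me3 to 0.0203 times in the lower library, with 138 and 144 peaks of H3K36me3, the mark of transcribed gene bodies. Below the window H3K27me3 was also low, with 14 and 19 peaks in 500 kb. H3K9me3 had 17 and 28 peaks there, 0.463 and 0.660 times the reference. Its last 100 kb bin below the window held 5 and 14 peaks, against 10 and 8 in the first bin inside. The chromosome 1 cluster adjoined denser H3K9me3: the 500 kb below it held 201 and 216 H3K9me3 peaks, 4.74 to 5.88 times the reference. H3K9me3 was dense below the chromosome 11 window as well, with 87 and 122 peaks.

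**Figure D3:**
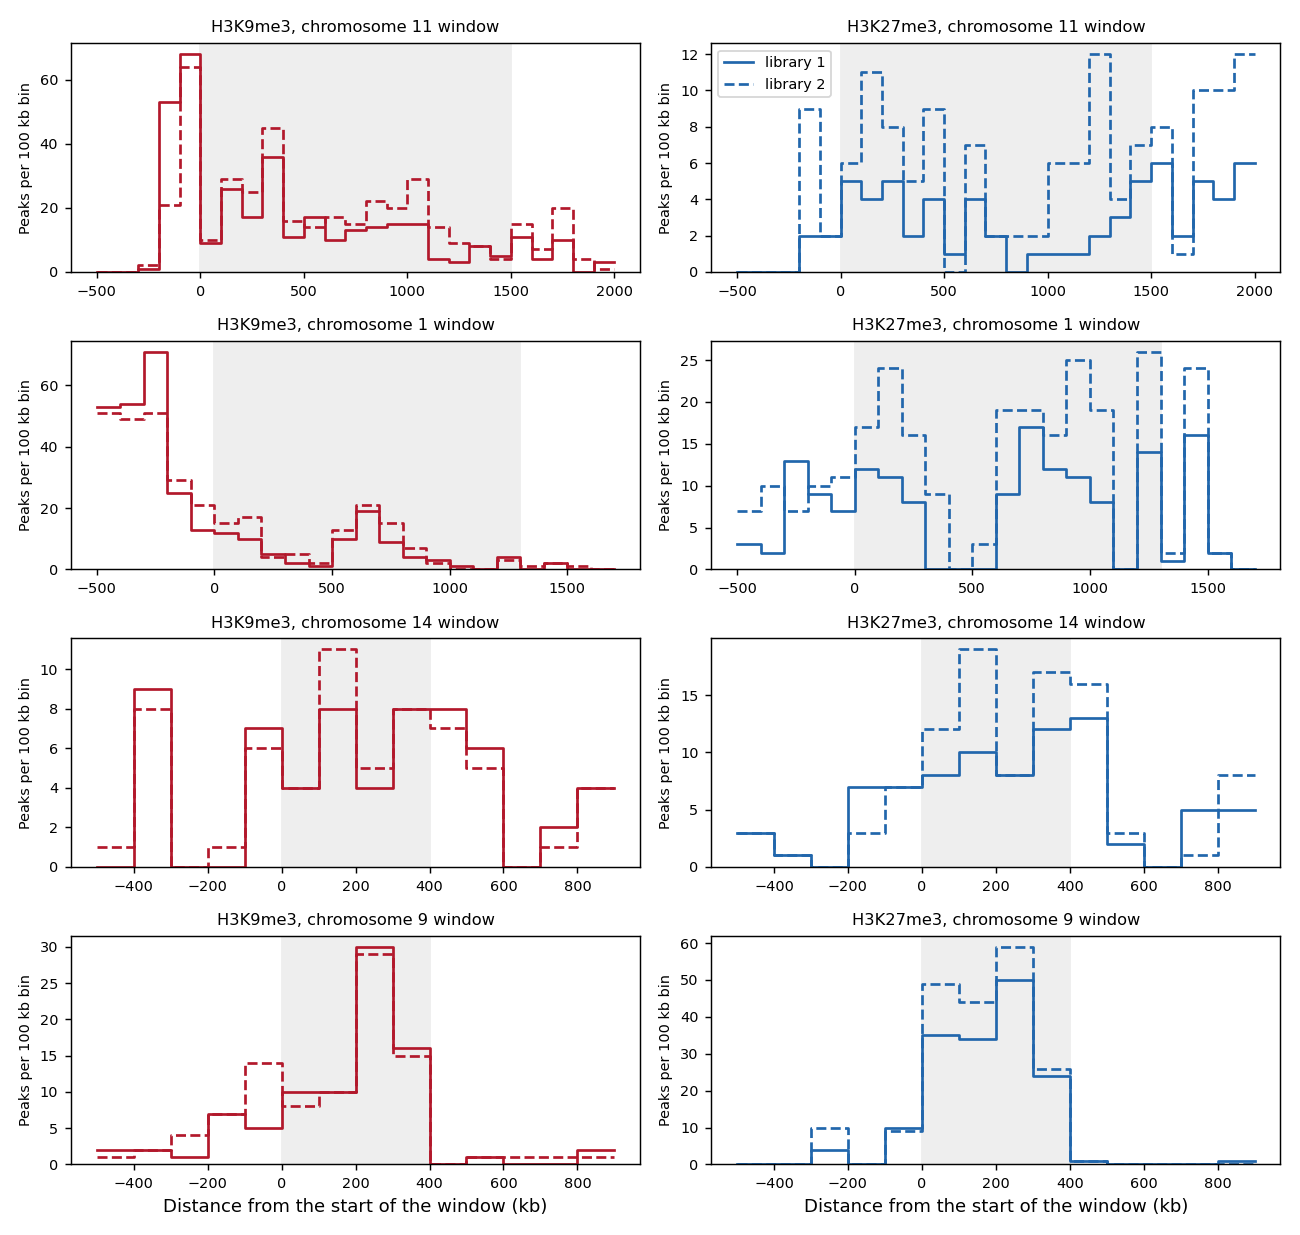
H3K9me3 (red, left) and H3K27me3 (blue, right) peaks per 100 kb bin against the distance in kb from the start of each olfactory receptor window, with the window shaded and up to 500 kb shown on each side; solid lines are library 1 and dashed lines library 2, and the vertical scales differ between panels. On chromosome 9 H3K27me3 fills the shaded window and falls at its end, and on chromosomes 1 and 11 H3K9me3 is highest left of the window.

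Joining peaks over gaps of up to 3 kb gave the extent of the marked stretches. The longest H3K27me3 stretch in the chromosome 9 cluster was 28.0 kb in library 1 (chr9:125478510-125506475) and 31.7 kb in library 2 (chr9:125475727-125507407). The longest H3K9me3 stretch of that cluster, 23.3 kb (chr9:125478574-125501824) and 26.0 kb (chr9:125479812-125505854), lay within the H3K27me3 stretch of the same library. Joined H3K27me3 stretches took up 46.5% and 49.7% of the chromosome 9 window, against 1.23% and 3.58% of the chromosome 11 window. On chromosome 11 the longest H3K9me3 stretch was 14.4 kb (chr11:55319896-55334262) and 16.4 kb (chr11:55319592-55335952), and the longest H3K27me3 stretch was 1.84 kb and 4.43 kb.

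The strongest regions called in both libraries, ranked by the lower of both −log10 q, differed in how the marks met. On chromosome 9 the strongest H3K9me3 region (chr9:125430914-125433116, −log10 q 16.1 and 26.8, fold enrichment 7.93 and 9.66) and the strongest H3K27me3 region (chr9:125430962-125433199, −log10 q 10.0 and 11.1) lay on nearly the same bases. On chromosome 14 they were neighbours, each also called for the other mark in both libraries, with H3K9me3 at chr14:20585479-20588117 (fold enrichment 8.22 and 6.40) and H3K27me3 at chr14:20588393-20589488 (−log10 q 11.5 and 11.9). On chromosome 1 the strongest H3K9me3 region was chr1:248273443-248275696 (−log10 q 21.5 and 21.7) and the strongest H3K27me3 region chr1:248870807-248872631 (−log10 q 6.84 and 5.67), far apart and without the other mark in both libraries. On chromosome 11 the regions were weaker, with H3K9me3 at chr11:56073158-56074219 (−log10 q 7.47 and 8.14) and H3K27me3 at chr11:55675368-55675872 (−log10 q 3.47 and 3.69). The H3K27me3 region of chromosome 11 also carried H3K9me3 in both libraries, while its H3K9me3 region carried no other target in both. Fold enrichment and q are the authors' values for each peak.

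The next question was whether the repressive marks occur on the same DNA. Over all 4 windows, 29.9% ± 3.82 of H3K9me3 peaks overlapped an H3K27me3 peak by at least 1 bp, against 31.6% ± 0.631 in the reference (SD between 2 H3K9me3 libraries, each averaged over both H3K27me3 libraries). The difference of −1.68 ± 3.19 percentage points was smaller than its spread. The pooled value hid a wide range between clusters. The share was 9.98% ± 0.181 on chromosome 11, 31.2% ± 2.69 on chromosome 1, 68.6% ± 6.10 on chromosome 14 and 85.1% ± 2.87 on chromosome 9. All 4 library combinations on chromosome 9 lay between 77.4% and 89.4%, and all on chromosome 11 between 5.42% and 14.8%. Without the chromosome 11 window, the windows exceeded the reference by 24.1 percentage points, and without the chromosome 9 window they fell 11.8 points short of it (−11.8).

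The clusters had the same order in the share of bases under H3K27me3 in both libraries, which was 0.272% on chromosome 11, 2.14% on chromosome 1, 3.59% on chromosome 14 and 15.9% on chromosome 9. Denser H3K27me3 meets more H3K9me3 peaks, and its part in the overlap was not tested. Seen from the other mark the clusters differed less: 38.1% ± 2.68 of H3K27me3 peaks overlapped H3K9me3 on chromosome 11, 21.9% ± 5.02 on chromosome 1, 43.8% ± 5.08 on chromosome 14 and 36.4% ± 1.43 on chromosome 9. The reference value was 29.6% ± 2.08. The few H3K27me3 peaks of the chromosome 11 cluster and those of chromosome 9 were close in this share. They differed by less than the SD between libraries on chromosome 11, but by more than that on chromosome 9.

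**Figure D4:**
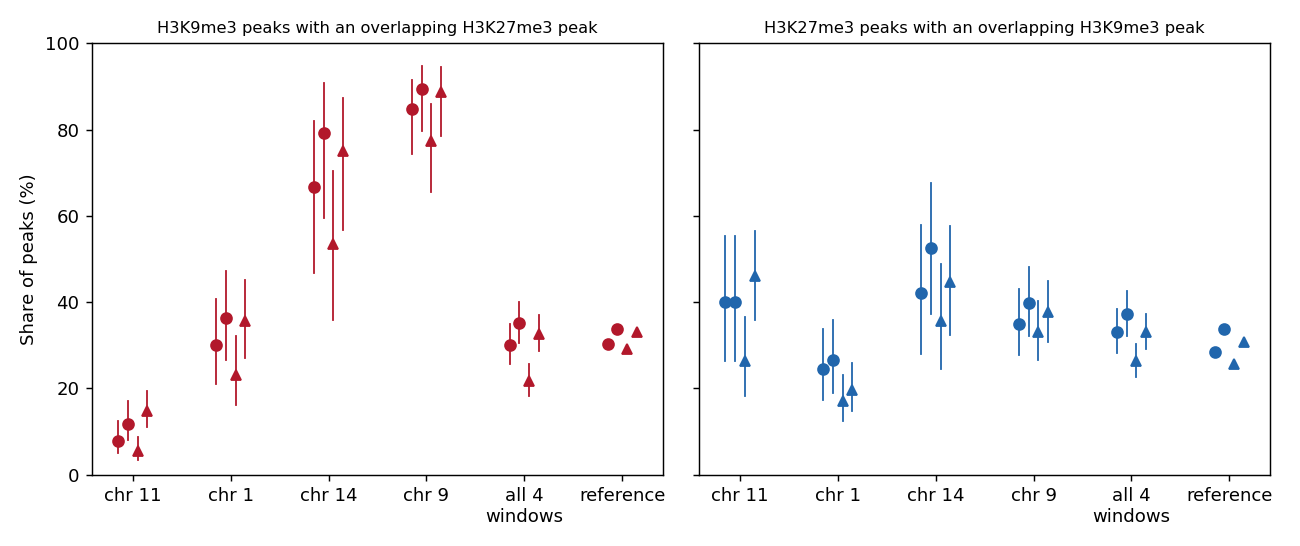
Share of H3K9me3 peaks with an overlapping H3K27me3 peak (left) and of H3K27me3 peaks with an overlapping H3K9me3 peak (right), in percent, for each olfactory receptor window, all 4 windows and the reference. Points are the 4 library combinations (circle and triangle, library 1 and 2 of the mark counted) and bars are 95% Wilson intervals that cover counting error only; the left panel runs from 9.98% on chromosome 11 to 85.1% on chromosome 9.

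Counted in bases, DNA under peaks of both marks in all 4 libraries amounted to 25.8 kb, or 0.716% of the windows, against 0.632% of the reference. Of this, 14.9 kb lay in the chromosome 9 cluster (3.73% of its bases) and 6.95 kb in the chromosome 14 cluster (1.74%). The chromosome 1 cluster had 3.16 kb (0.243%) and the chromosome 11 cluster, the largest window, 0.737 kb (0.0491%). The shared bases divided by all bases under either mark in both its libraries were 0.363 on chromosome 14, 0.205 on chromosome 9, 0.0752 on chromosome 1 and 0.0153 on chromosome 11, against 0.120 in the reference. By this measure the chromosome 14 cluster, not that of chromosome 9, was the most coincident. Peak counts of the 2 marks had a Spearman rho of −0.0388 across the 36 window bins and of 0.504 across reference bins, while libraries of the same mark had 0.896 (H3K9me3) and 0.899 (H3K27me3) across the window bins. These are descriptions, as neighbouring bins and bins of 1 library share their source.

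Active marks were rare in the receptor clusters. The chromosome 11 cluster had 4 and 9 peaks of all 8 active marks in libraries 1 and 2 over 1.5 Mb. H4K5acK8ac, H4K5ac, H4K8ac and H3K36me3 had no peak there in either list. The chromosome 1 cluster had 61 and 68 active peaks, the chromosome 14 cluster 22 and 30 and the chromosome 9 cluster 36 and 30. By mark, the density ratio was lowest for H4K5acK8ac, with 7 and 6 peaks in all windows (0.0686 ± 0.00483), and H4K8ac (0.0745 ± 0.0268). It was 0.0926 ± 0.0253 for H3K36me3, 0.105 ± 0.0237 for H3K4me1, 0.108 ± 0.0452 for H3K27ac, 0.109 ± 0.00484 for H4K5ac and 0.179 ± 0.0173 for H4K12ac (SD, n = 2 libraries each).

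H3K4me3 was the least depleted active mark, at 0.394 ± 0.00582 (SD, n = 2 libraries), with 11 peaks in each list. Pooled over the windows, their median fold enrichment was 4.80 and 5.63, against 61.7 and 67.5 in the reference. Counted as covered bases its ratio was 0.182. The pooled median width was 482 and 636 bp against 1777 and 1743 bp. These medians mix low and high peaks. By window the median fold enrichment was 4.38 and 4.10 on chromosome 11 and 4.80 and 5.37 on chromosome 14. It was 40.4 and 44.1 on chromosome 1 and 76.1 and 84.4 on chromosome 9, where the median width was 1649 and 1652 bp.

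Regions of an active mark or BRD2 called in both libraries with a −log10 q of at least 5 in each numbered 34, of which 18 lay on chromosome 1, 13 on chromosome 9, 2 on chromosome 11 and 1 on chromosome 14. Joined over gaps of up to 10 kb, a step chosen after these values were seen, they formed 10 loci, and 4 of these held strong regions of 5 or more targets. Those 4 loci take up 1.00% of the window bases and held 104 of the 260 active peaks, while 156 lay outside them. Since the loci were built from strong regions of these same lists, they hold active peaks by construction. Their share of strong peaks is therefore not given, and the 104 of 260 does not measure how concentrated the active peaks were.

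The 4 multi-mark loci lie on chromosomes 1 and 9. At chr9:125579852-125591816, at the upper edge of the chromosome 9 window, H3K4me3 (chr9:125589504-125591460) had a fold enrichment of 103 and 114 and H3K27ac (chr9:125590023-125591492) of 54.2 and 56.1. H3K36me3 lay beside it from chr9:125578050-125579282 through chr9:125585932-125589211. At chr1:248019780-248039937 H3K4me3 (chr1:248019801-248021956) had a fold enrichment of 80.7 and 92.7, again with H3K36me3 on 1 side, from chr1:248025600-248026530 through chr1:248038337-248039937. The remaining loci were chr1:247610315-247612214, with H3K4me3 at 40.4 and 44.1 fold, and chr9:125225798-125227789, with H3K4me3 at 48.9 and 54.6 fold (chr9:125226107-125227505). Both sit near the lower edge of their window.

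The other 6 loci held strong regions of a single target each. On chromosome 1 an H3K4me3 region at chr1:248100269-248101056 had a fold enrichment of 48.4 and 53.3, with weak H4K5acK8ac as the only other target called in both libraries. An H3K4me3 region at chr1:248069680-248070315 was weaker (3.99 and 4.35 fold), with an H3K4me1 region called in both libraries beside it (chr1:248069236-248069521). The H3K27ac region at chr1:247904941-247906891 (5.82 and 6.91 fold) overlapped H4K5ac and had further H3K27ac (chr1:247909260-247911376) and H3K4me1 (chr1:247909364-247910187) regions close by, all called in both libraries. On chromosome 11 the 2 strong regions were H3K4me3 at chr11:55987008-55987578 (4.38 and 5.63 fold) and chr11:56322156-56322555 (4.61 and 4.10 fold), with no other target in both libraries. On chromosome 14 it was H3K4me3 at chr14:20341184-20341567 (4.80 and 5.37 fold), which also carried H3K4me1. No H3K4me3 region called in both libraries exceeded a fold enrichment of 5.63 on chromosomes 11 and 14.

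BRD2 was present in the receptor clusters at a density ratio of 0.481 in library 1 and 0.222 in library 2, or 0.352 ± 0.183 (SD, n = 2 libraries), with 35 and 13 peaks. Its ratio was above that of every acetylation mark in both libraries. A summit in both libraries was found in 5 of 36 window bins, against 48.5% of reference bins. The clusters differed. On chromosome 11 there were 9 BRD2 peaks in library 1 and none in library 2. On chromosome 9 there were 11 and 4, at 1.36 and 0.615 times the reference, so library 1 was not depleted there. The ratios were 0.495 and 0.615 on chromosome 14 and 0.419 and 0.236 on chromosome 1.

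The BRD2 peaks divided into a minority at H3K4me3 and acetylation and a larger remainder away from both. In library 1, 4 of 35 peaks overlapped H3K4me3, with a −log10 q of 1.06 to 16.5, and these same 4 overlapped acetylation. The other 31, with a −log10 q of 0.242 to 2.33, overlapped no acetylation peak, and 27 of them had a −log10 q below 1.3, that is a q above 0.05. In library 2, 6 of 13 peaks overlapped H3K4me3 and acetylation, with a −log10 q of 3.82 to 46.5, while the other 7 lay between 0.799 and 2.49. The groups thus overlapped in strength in library 1 and did not in library 2. None of the 31 and 7 window peaks away from H3K4me3 was called in the other library, where the reference share for such peaks was 6.46% and 9.28%.

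Against the reference, acetylation was found at 11.4% and 46.2% of BRD2 window peaks in libraries 1 and 2, compared with 50.9% and 73.9%. Repressive marks were found there more often: H3K27me3 at 14 of 35 and 3 of 13 peaks, compared with 11.4% and 7.80% of peaks in the reference, and H3K9me3 at 25.7% and 15.4%, compared with 10.7% and 7.90%. These shares rest on 35 and 13 peaks and were not tested. Of the 31 BRD2 peaks away from H3K4me3 in library 1, 17 overlapped a repressive mark (54.8%), as did 4 of the 7 in library 2 (57.1%). Among reference BRD2 peaks away from H3K4me3 the share was 24.1% and 21.7%.

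Weak BRD2 calls, those with a −log10 q below 1.3, made up 28 of 35 window peaks in library 1, or 80.0% (95% Wilson interval 64.1 to 90.0%), against 64.7% in the reference. In library 2 they made up 3 of 13, or 23.1% (8.18 to 50.3%), against 28.1%. The libraries moved in opposite directions, and the mean difference of 5.11 ± 14.4 percentage points (SD, n = 2 libraries) was within their spread. Without the chromosome 14 window it was −0.548. Once peaks under a −log10 q of 1.3 were left out, the BRD2 density ratio was 0.273 in library 1 and 0.238 in library 2, or 0.255 ± 0.0250 (SD, n = 2 libraries), and the libraries lay closer together than with all peaks. At a −log10 q of at least 5, with 1 and 4 window peaks, it was 0.207 ± 0.0611.

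**Figure D5:**
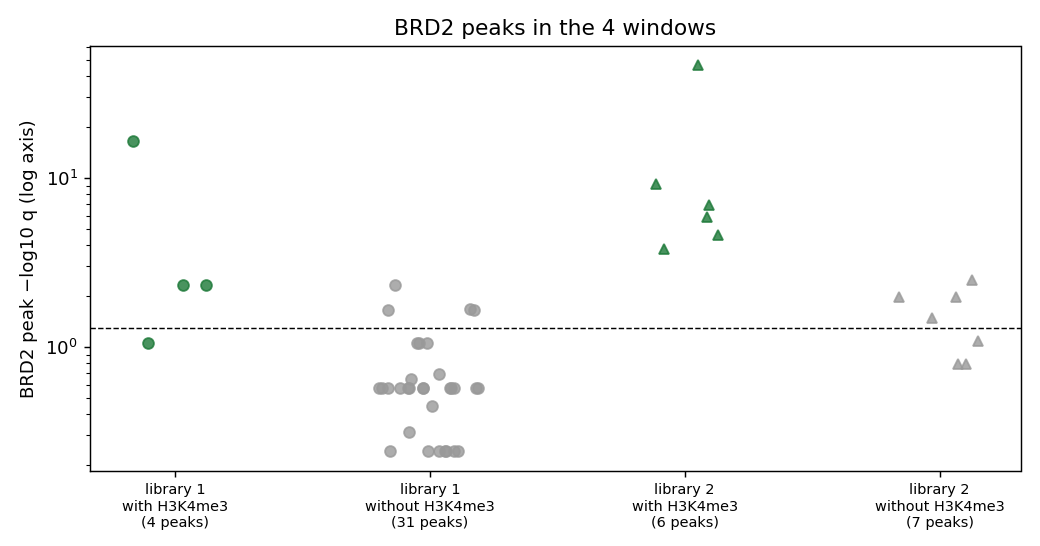
Deposited −log10 q (log axis) of every BRD2 peak in the olfactory receptor windows, by library (circle, library 1; triangle, library 2) and by whether it overlaps an H3K4me3 peak (green) or not (grey), with points spread sideways for legibility. The dashed line marks 1.3; of the peaks without H3K4me3, 27 of 31 in library 1 and 3 of 7 in library 2 lie under it.

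BRD2 regions called in both libraries numbered 4, all in the multi-mark loci named above and none on chromosomes 11 or 14. The region at chr1:247611032-247611629 was the strongest, with a −log10 q of 16.5 and 46.5. The others were chr9:125590568-125590918 (2.33 and 9.24), chr1:248020486-248021233 (1.06 and 6.96) and chr9:125226282-125226837 (2.33 and 5.86). BRD2 and H3K4me3 did not follow the same order: the BRD2 region with the highest −log10 q lay at the locus with the lowest H3K4me3 enrichment of the 4.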

How the data were processed

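ChIP-seq peak lists of NCI-H23 cells (11 targets, 2 libraries each) were used as deposited, 1 list per library, not pooled as far as stated. The submitters' processing notes name BWA, MACS2 and hg19 without versions; settings and filters are not given in the sources used here. Each deposited peak has a fold enrichment, taken as a ratio over background, and a −log10 p and −log10 q from the peak caller. A score was also deposited, computed from −log10 p, and stayed out of all calculations. MACS2 narrow peaks split broad marks into many short pieces, so peak numbers of H3K9me3 and H3K27me3 reflect fragmentation as well as extent; covered bases are given beside them. The lists hold no read numbers, so depth could not be corrected, and a longer list meets others more often.

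Peaks were placed by summit in 100 kb bins. A density ratio is peaks per Mb in the windows divided by that in 28081 reference bins. Only repressive against active marks was tested, by an exact permutation test over marks, two-sided. Intervals are 95% Wilson intervals and cover counting error only. Overlap means at least 1 bp. The tests were checked on simulated data. The null values simulated for the permutation test were independent, unlike the real marks, so the check does not cover their dependence. Windows, lists and comparisons were chosen with earlier results of these data known. Regions named are, per window, the strongest H3K9me3 and H3K27me3 region called in both libraries and every active or BRD2 region with −log10 q of at least 5 in both, or the top 3 where over 10 qualified; the 4 shared BRD2 regions, the H3K36me3 regions, other loci and joined stretches were named beyond that rule, after their values were seen. Alternatives were peak strength, left-out libraries, left-out windows, covered bases, other reference bins, overlap of 50% and a replicate block. Python 3.11.15, numpy 2.4.6, pandas 2.3.3, scipy 1.17.1 and matplotlib 3.10.9 were used.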

Additional observations from a re-analysis of the deposited data

Results flagged for a closer look

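The clusters compared here lay on opposite sides of the genome density, and both libraries of a cluster lay on the same side. These differences were not tested. The H3K9me3 density ratio was 2.04 in the chromosome 9 window and 0.821 in the chromosome 14 window. The H3K27me3 density ratio was 4.62 in the chromosome 9 window and 0.470 in the chromosome 11 window. The median bin gave another picture for the 2 lower values. It held 6.25 H3K9me3 peaks on chromosome 14, against 4.5 in the reference, and 3.5 H3K27me3 peaks on chromosome 11, against 2.5.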

How the results depend on the processing

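Of 86 alternative values, 66 kept their direction and, where tested, their call, or moved by less than 1 SD, 10 moved further, 9 reversed and 1 lost its call. The difference between repressive and active marks was 0.658 to 1.52 in its 14 alternatives, with p = 0.0444 in 13 (exact permutation test), the smallest that design can give, which says nothing of stability; without H3K36me3 it was 1.25 with p = 0.0556, again the smallest possible. The H3K9me3 ratio was 0.861 for peaks with −log10 q of at least 5, 0.431 for the 20000 strongest, 1.10 without the chromosome 11 window, 1.81 without that of chromosome 1, 1.11 in covered bases, 1.96 against the same chromosomes and 1.299 against bins without H3K4me3. The H3K27me3 ratio was 0.904 without the chromosome 9 window, 1.92 without that of chromosome 11, 1.07 for peaks with −log10 q of at least 5 and 1.04 against bins without H3K4me3. The overlap difference in percentage points was 2.64 at −log10 q of at least 5, 21.9 for the 20000 strongest, 24.1 without the chromosome 11 window, −11.8 without that of chromosome 9, 0.312 with 50% overlap and −6.18 against the same chromosomes. The BRD2 ratio was 0.255 at −log10 q of at least 1.3 and 0.207 at 5 or more. The weak BRD2 difference was −5.04 without replicate 1 and −0.548 without the chromosome 14 window, and among the 20000 strongest peaks it had no weak call on either side. Other causes of these shifts were not tested. Leaving out either replicate gave 1.16 to 1.35 for repressive against active marks, 1.41 to 1.54 for H3K9me3, 1.18 to 1.45 for H3K27me3, 0.137 to 0.159 for 7 active marks without H3K36me3 (0.148 with both libraries), 0.222 to 0.481 for BRD2, −0.324 to −0.206 points for the overlap and −5.04 to 15.3 points for weak BRD2 calls. With a replicate block the first was 1.26 (exact permutation p = 0.0444), fixed in advance because the block averages the same libraries. It is counted among the 14 alternatives all the same. The overlap with a replicate block was −0.265 points. Correlations between same-numbered libraries of 55 target pairs ran from −0.241 to 0.354. They cannot show whether same-numbered libraries shared a culture or a batch. Depth is unknown, which limits every density set between libraries.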
